A study of Homo sapiens with 3 samples.

Results

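Trans contacts with chromosome 6 were counted for 6 captured regions of the human genome, over all 3423 windows of 50 kb on that chromosome (GRCh37/hg19). With 6 regions this made 20538 of the 346136 pairs of region and window in the series. Chromosome 6 was chosen by measured values, namely the contacts of 8q24.21 with the stretch that begins at the 6q side of the centromere and ends near 73 Mb, and the contacts of the chromosome 16 region with the end of 6p. Those values are given as a description. Fits across all windows or bins include them, so counts of calls are given with and without them. The other windows of the chromosome and the other 4 regions did not enter that choice.

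Capture Hi-C joins neighbouring DNA ends inside fixed nuclei by ligation, and baits then pull out the joined pairs that include a region of interest. The study took 8q24.21, 9q31.2 and 2q35, which are associated with breast cancer risk, and 3 further regions on chromosomes 3, 16 and 18. BT483 is a line from a primary invasive ductal carcinoma, grown with insulin and lysed with trypsin. SUM44 is a breast cancer line from a pleural effusion, grown with estradiol and lysed with a dounce. GM06990 is a lymphoblastoid line, made from B lymphocytes, also lysed with a dounce. All 3 lines were fixed for 5 min in 2% formaldehyde and digested with HindIII. Tissue of origin, medium and lysis method cannot be told apart from the line itself. Each line was 1 sample with 2 replicate count columns (n = 2), and nothing in the labels says that these came from separate cultures, so p-values measure only the spread between these columns.

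A contact in trans joins loci on different chromosomes. Chromosomes occupy territories of their own in the nucleus, so in most cells a locus meets a given place on another chromosome rarely. The number of trans contacts with a stretch also depends on how many copies of it a nucleus holds, and DNA that has been joined to another chromosome keeps contacts that fall with distance from the junction. Neither copy number nor junctions were measured here. Chromosome 6 carries the major histocompatibility complex on its short arm and ESR1, the gene of the estrogen receptor, on its long arm. In a population of cells, a contact made often in few cells and one made rarely in many cells give the same count.

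The captured regions spanned bases 127886760 to 128470692 of chromosome 8 (8q24.21, 192 HindIII fragments), 217609776 to 218362744 of chromosome 2 (2q35, 227 fragments) and 110758376 to 111099364 of chromosome 9 (9q31.2, 100 fragments). The further regions spanned bases 73599933 to 74183980 of chromosome 16 (190 fragments), 82599410 to 82938789 of chromosome 3 (109 fragments) and 38494518 to 39252983 of chromosome 18 (259 fragments). Chromosome 6 received 244916 contacts in BT483, 224277 in SUM44 and 298042 in GM06990, 767235 in all. A region and replicate had 2940 to 65325 contacts there, of 63977 to 1285736 trans contacts. Of the 3423 windows, 3353 held a contact of some region in some line and 70 were empty throughout. An unbroken run of 61 empty windows, from 58800001 to 61850000, covered the centromere and parted 1176 windows of 6p from 2186 of 6q. Below, a level is the mean count of a window divided by the mean count of all trans windows of the same region and replicate, so that 1 is the average trans window. Levels are relative: a region that gains contacts elsewhere has a lower level here.

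The share of trans contacts that fell on chromosome 6 was lower in BT483 than in GM06990, and in SUM44 its direction differed between the captured regions. Over the 6 regions together it was 4.53% and 4.91% in the BT483 replicates, 7.37% and 7.26% in SUM44 and 6.47% and 6.43% in GM06990. The replicates of the 3 lines did not overlap. Without 8q24.21, whose values chose the chromosome, it was 4.43% and 4.82% in BT483, 6.27% and 6.34% in SUM44 and 6.39% in both replicates of GM06990, so SUM44 was then the lower of that pair. From 8q24.21 the share was 4.94% ± 0.206 in BT483, 10.1% ± 0.420 in SUM44 and 6.68% ± 0.141 in GM06990 (SD, n = 2 each), where 5.93% of the trans windows lie on this chromosome. From the other 5 regions it was 4.35% to 5.01% in BT483, 5.82% to 7.02% in SUM44 and 6.02% to 6.84% in GM06990. The share of SUM44 was highest from 8q24.21, where both its replicates exceeded both of GM06990. The same held from the chromosome 16 region, with 6.33% and 6.38% in SUM44 against 5.96% and 6.08% in GM06990. It also held from the chromosome 3 region, with 7.06% and 6.97% against 6.78% and 6.69%. From 9q31.2 the gap was small, with 6.43% and 6.40% against 6.31% and 6.39%. From 2q35 and the chromosome 18 region SUM44 was the lower of the pair, with 6.41% and 5.82%, against 6.84% and 6.16% in GM06990.

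The arms of chromosome 6 were contacted unequally in both breast lines and almost equally in GM06990, whichever region was captured. The ratio of the 6p level to the 6q level was 1.86 to 2.44 in BT483, 1.41 to 1.78 in SUM44 and 0.969 to 1.06 in GM06990 over the 6 regions. For 2q35 it was 2.27 and 2.61 in the BT483 replicates, 1.64 and 1.60 in SUM44 and 1.02 in both replicates of GM06990. In every region both replicates of BT483 and both of SUM44 lay above both of GM06990. The median over the regions was 2.09 ± 0.179 in BT483, 1.57 ± 0.0330 in SUM44 and 1.01 ± 0.00400 in GM06990 (SD, n = 2 each).

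**Figure D1:**
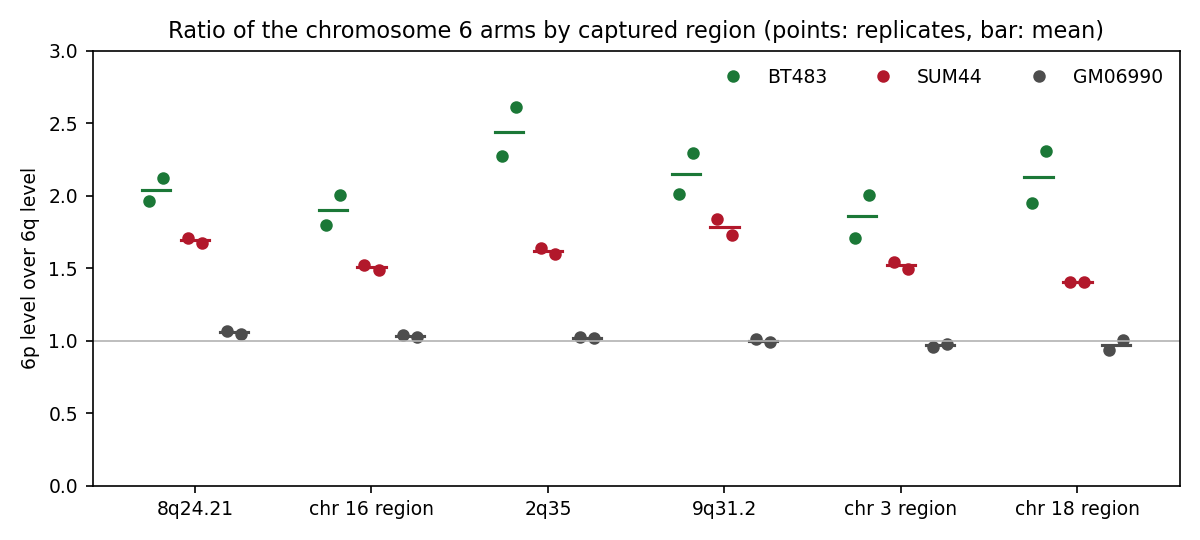
Ratio of the mean level of 6p windows to that of 6q windows for each captured region (horizontal axis), with a point for each replicate and a bar for the mean. BT483 lies between 1.71 and 2.61, SUM44 between 1.41 and 1.84 and GM06990 between 0.936 and 1.07, so neither breast line overlaps GM06990.

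In BT483 the imbalance lay mainly on 6q. The 6q level was 0.554 to 0.624 in BT483 and 1.04 to 1.15 in GM06990, and their ratio was 0.492 to 0.556 over the 6 regions. The 6p level was 1.10 to 1.35 in BT483 and 1.06 to 1.19 in GM06990. The low level ran along the whole arm. In blocks of 10 Mb from 60 to 170 Mb, the median ratio of BT483 to GM06990 over the regions stayed between 0.48 and 0.59, and the extremes of single regions and blocks were 0.36 and 0.69. On 6p the medians were 1.04 to 1.24.

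**Figure D2:**
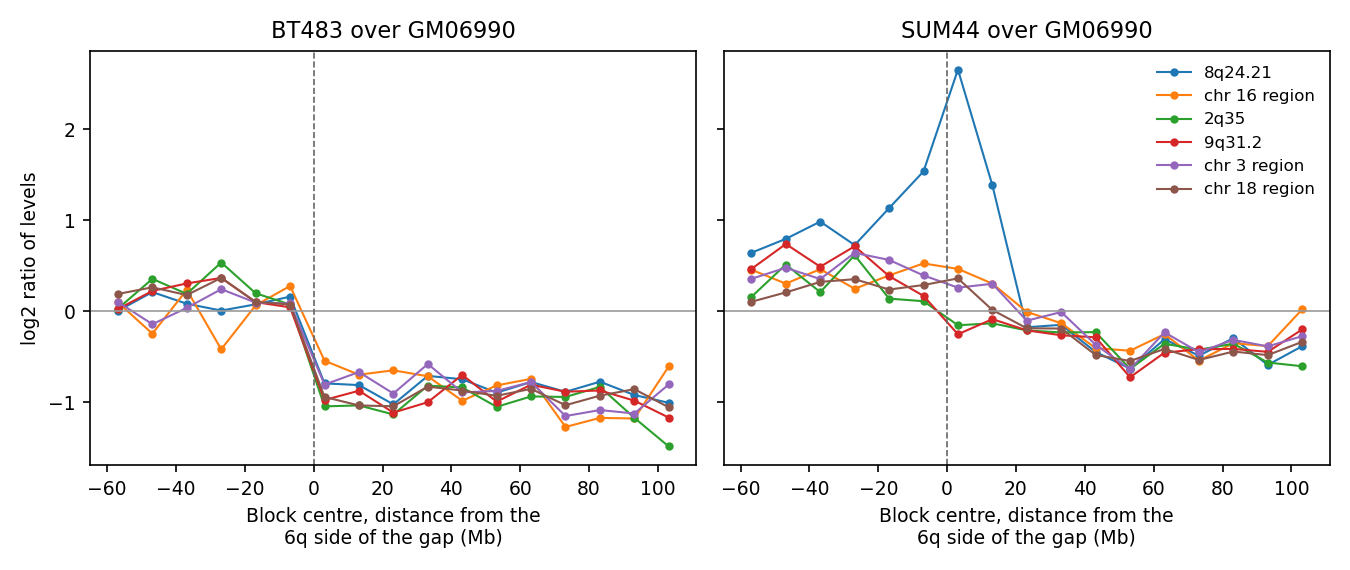
Base-2 logarithm of the level in BT483 (left) or SUM44 (right) over that in GM06990, for blocks of 10 Mb placed by their distance from the 6q side of the gap (dashed line), with a line for each captured region. In BT483 all 6 lines drop together at the gap, to median ratios of 0.48 to 0.59 on 6q, whereas in SUM44 8q24.21 stands above the other regions in the block from 60 to 70 Mb, at a ratio of 6.31.

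The bins of 1 Mb on 6q from 73 Mb outward were tested between BT483 and GM06990 with edgeR's quasi-likelihood test, at a Benjamini-Hochberg adjusted p under 0.05. In the whole genome 22.3% of tested bins were lower in BT483 and 38.4% differed in either direction. On this part of 6q, 496 of 588 tests were lower and none was higher, also at an unadjusted p under 0.05 and by DESeq2. By region, 94 of 98 bins were lower for 8q24.21, 95 for 2q35, 91 for 9q31.2, 79 for the chromosome 16 region, 98 for the chromosome 18 region and 39 for the chromosome 3 region, which had the fewest contacts. The share of lower bins among all trans bins of the same region was 22.9%, 29.1%, 24.4%, 29.9%, 21.7% and 5.46% in that order. The median log2 change of these bins was between -0.84 and -0.98 in every region. Without GM06990 replicate 2, the deeper of its replicates, 311 tests were lower, and DESeq2 gave 313, with no adjusted p for the 98 bins of the chromosome 3 region. BT483 and SUM44 were compared directly in the same fit. In that contrast 70 of 98 bins were lower in BT483 for 2q35, 57 for 8q24.21, 51 for the chromosome 16 region, 47 for 9q31.2, 44 for the chromosome 18 region and 12 for the chromosome 3 region. The background for lower bins in those regions was 22.4%, 20.2%, 18.5%, 17.1%, 15.8% and 5.58% in that order.

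In SUM44 the mean level of 6p was above GM06990 and that of 6q below it for the 5 regions other than 8q24.21. For 8q24.21 both arms were above it, with a 6q level of 1.40 in SUM44 and 1.12 in GM06990, which includes the stretch that chose the chromosome. The 6p level was 1.26 to 1.54 in SUM44 for the 5 regions other than 8q24.21, and 1.06 to 1.15 in GM06990. Their 6q level was 0.866 to 1.00 in SUM44 and 1.04 to 1.15 in GM06990. The block ratios of SUM44 to GM06990 had medians of 1.27 to 1.55 on 6p, 1.24 from 60 to 70 Mb and 1.12 from 70 to 80 Mb. From 80 Mb to 170 Mb the medians were 0.64 to 0.89, lowest from 110 to 120 Mb. The median region was thus below GM06990 from 80 Mb on in SUM44, and from the gap on in BT483.

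The same test was applied to SUM44 and GM06990. Among 59 bins of 6p, 34 were higher in SUM44 for 9q31.2, 29 for 2q35, 8 for the chromosome 16 region, 6 for the chromosome 18 region and 5 for the chromosome 3 region. Among all trans bins of these regions 18%, 20.9%, 10.4%, 9.81% and 4.93% were higher in that order. The first 2 counts are well above that share, and those of the chromosome 16 and 18 regions are close to it. On 6q from 73 Mb, 52 of 98 bins were lower for 2q35, 45 for 8q24.21, 31 for 9q31.2, 30 for the chromosome 18 region, 12 for the chromosome 16 region and 4 for the chromosome 3 region. The matching shares of lower bins among all trans bins were 42.9%, 34.7%, 28.1%, 29%, 19.6% and 7.36%, so on 6q in SUM44 the counts were close to the background or at most modestly above it, and those for the chromosome 16 and 3 regions were below it. Together with 57 of 59 from 8q24.21, 139 of 354 tests on 6p were higher in SUM44, and 88 remained past the threshold without GM06990 replicate 2 and 91 without SUM44 replicate 1. Of the 139, 57 came from 8q24.21, where 15.7% of all trans bins were higher, 34 from 9q31.2 and 29 from 2q35. Another 1 was the first bin of 6p for the chromosome 16 region, which holds windows that chose the chromosome.

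Windows of 50 kb were tested singly as well. Over the 6 regions 14060 windows of chromosome 6 held enough contacts to be tested, 234 of them for the chromosome 3 region. Between BT483 and GM06990, 34 were higher and 385 lower, 419 in all, where 1.94% of windows in the genome were called. Between SUM44 and GM06990, 551 were higher and 157 lower, 708 in all, against 4.74% in the genome, and 450 of the higher ones belonged to 8q24.21, the region whose values chose the chromosome, where 2.46% of its trans windows were higher. Between BT483 and SUM44, 22 were higher and 718 lower in BT483, 740 in all, against 4.55%. Without the windows whose values chose the chromosome, 413 of 13837 were called between BT483 and GM06990 (2.98%), 504 between SUM44 and GM06990 (3.64%) and 533 between BT483 and SUM44 (3.85%). For the contrasts with SUM44 these window shares, which pool both directions, were below the genome's. Of the 533 between BT483 and SUM44, 511 were lower in BT483. DESeq2 gave 3, 273 and 258 in the order of these contrasts, with no window lower in BT483 or SUM44 than in GM06990, and the window counts depended on single libraries. The count for BT483 against GM06990 was 9 without GM06990 replicate 2, 60 without GM06990 replicate 1, 23 without BT483 replicate 2 and 267 without BT483 replicate 1. That for SUM44 against GM06990 was 157 and 299 without GM06990 replicates 2 and 1, and 333 and 360 without SUM44 replicates 1 and 2. That for BT483 against SUM44 was 218 without BT483 replicate 2, 346 and 372 without SUM44 replicates 1 and 2, and 441 and 445 without GM06990 replicates 1 and 2. At 1 Mb, 617 of 1014 bins were called between BT483 and GM06990 (57 higher, 560 lower), 346 between SUM44 and GM06990 (159 higher, 187 lower, against 40.2% in the genome) and 456 between BT483 and SUM44 (9 higher, 447 lower, against 39.8%). Without the 13 bins that hold the chosen values these were 604, 333 and 443 of 1001 (60.3%, 33.3% and 44.3%). The share between BT483 and GM06990 was above the genome's 38.4%. That between BT483 and SUM44 was above the genome's 39.8%, and 434 of those 443 bins were lower in BT483. The share between SUM44 and GM06990 was below the genome's. Both breast lines were set against the same GM06990 columns.

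The contacts of 8q24.21 in SUM44 were raised over much of 6p and the first part of 6q, up to a single position where they dropped. Over the labelled stretch, from 61850001 to 73000000 (223 windows), the level was 0.577 and 0.492 in the BT483 replicates, 6.22 and 5.47 in SUM44 and 0.941 and 0.968 in GM06990. SUM44 was thus 6.13 times GM06990, and BT483 was 0.560 times GM06990, close to its ratio on the rest of 6q. The other 5 regions had 0.839 to 1.43 in SUM44 over the same windows. These are the values that chose the stretch.

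**Figure D3:**
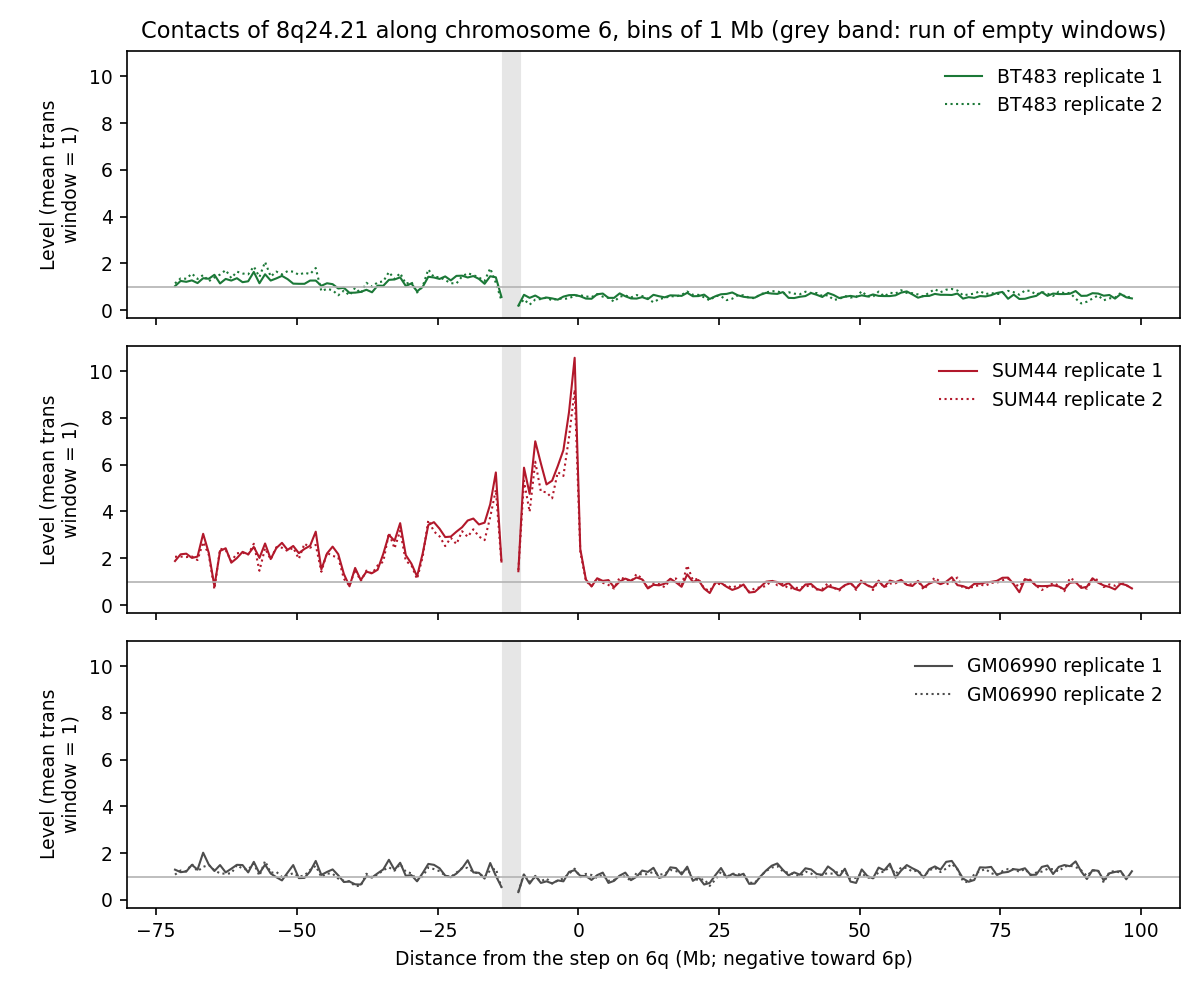
Level of 8q24.21 contacts in bins of 1 Mb along chromosome 6, by distance from the step on 6q, with a panel for each line and a line for each replicate; the grey band marks the 61 empty windows. SUM44 is raised along 6p, exceeds 9.2 in the last bin before the step in both replicates and falls to about 1 beyond it, while BT483 and GM06990 stay near or below 2 throughout.

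The raised stretch ended before its labelled end. The largest step of the SUM44 profile, found from 20 windows on each side, lay at base 72150000. The 20 windows before it held 2859 contacts and the 20 after it 291, which are levels of 10.0 and 1.02 and a log2 ratio of 3.29. At the edge itself the windows that begin at 72050001 and 72100001 had levels of 13.4 and 5.83 in SUM44, and those that begin at 72150001 and 72200001 had 0.774 and 1.83. The 17 windows between the step and the labelled end had a level of 0.572 ± 0.0392 in BT483, 1.02 ± 0.0618 in SUM44 and 0.935 ± 0.0309 in GM06990. The windows on either side of the labelled end showed no edge: those that begin at 72900001 and 72950001 had 1.55 and 1.76 in SUM44, and those that begin at 73000001 and 73050001 had 0.492 and 1.55.

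**Figure D4:**
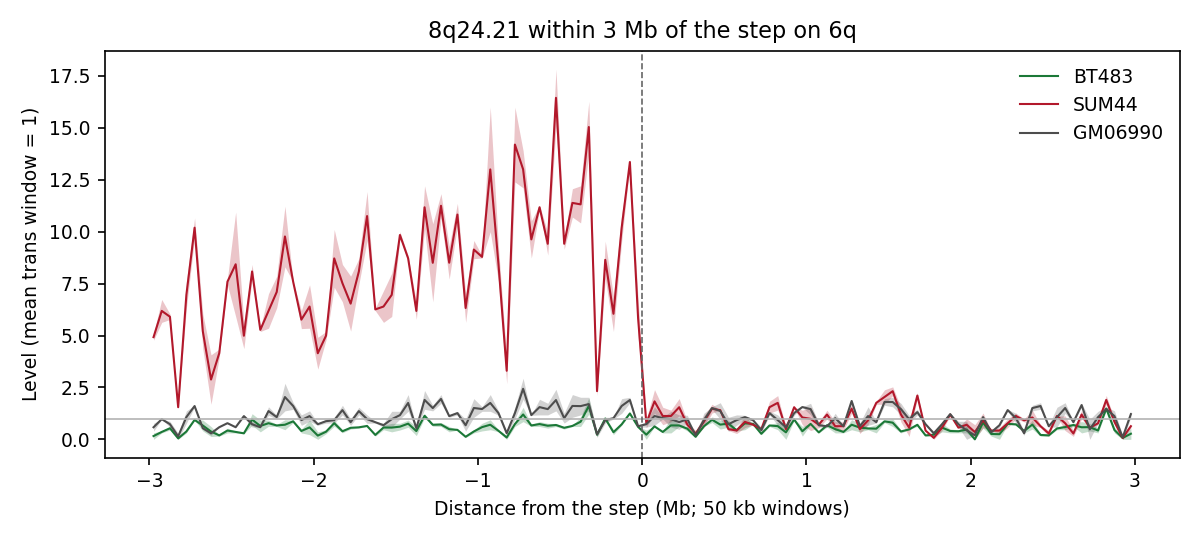
Level of 8q24.21 contacts in 50 kb windows within 3 Mb of the step (dashed line); lines are means of the replicates and bands their range. In SUM44 the 20 windows before the step average 10.0 and the 20 after it 1.02, and the means of the last and first 1 Mb beside it are 0.713 and 0.571 in BT483 and 1.34 and 0.965 in GM06990.

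Up to the step, over 206 windows, the level was 0.531 ± 0.0681 in BT483, 6.25 ± 0.570 in SUM44 and 0.956 ± 0.0227 in GM06990 (SD, n = 2 each). Those windows are 6.02% of chromosome 6. They held 3.59% of the chromosome 6 contacts of 8q24.21 in BT483, 22.1% in SUM44 and 5.16% in GM06990. For SUM44 this was 18309 of 82878 contacts, with an exact Clopper-Pearson 95% interval of 21.8% to 22.4% that covers counting error only, since read pairs were amplified by PCR and carried no molecular identifiers. Within the stretch the level was not flat. In SUM44 the 3 windows of the bin at 61 Mb had 9.80, where GM06990 had 2.27, the bins of 1 Mb that start at 62 to 69 Mb had 4.37 to 6.57, the bin at 70 Mb 7.71 and the bin at 71 Mb 9.89. The bin at 73 Mb had 1.06. In GM06990 the same bins from 62 to 71 Mb had 0.702 to 1.30. The tallest window in SUM44 began at 71600001 and had 234 contacts, with levels of 17.8 and 15.1 in the replicates.

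The raised level went on across the centromere into 6p. The last window before the gap, which begins at 58750001, had 3.05 in BT483, 9.42 in SUM44 and 2.38 in GM06990. The first windows after the gap, which begin at 61850001 and 61900001, had 1.62 and 1.40 in BT483, 9.98 and 12.3 in SUM44 and 2.72 in both for GM06990. These windows were above the average in GM06990 as well. The last 1 Mb before the gap as a whole had 0.521 in BT483, 2.19 in SUM44 and 0.571 in GM06990, lower in each line than from 45 Mb to the gap. From 45 Mb to the gap the level was 1.35 ± 0.00697 in BT483, 3.33 ± 0.279 in SUM44 and 1.20 ± 0.0355 in GM06990. From the 6p end to 45 Mb it was 1.24 ± 0.111 in BT483, 2.06 ± 0.0662 in SUM44 and 1.19 ± 0.0354 in GM06990. Beyond the labelled stretch, on the other side of the step, it was 0.631 ± 0.0155 in BT483, 0.889 ± 0.00637 in SUM44 and 1.14 ± 0.0225 in GM06990. In SUM44 that last value lay within the 0.848 to 0.961 of the other 5 regions, so the difference between 8q24.21 and the other regions ended at the step.

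Windows over 5 times the median trans window of the region and line showed the same extent. In SUM44 294 such windows from 8q24.21 lay on chromosome 6, none of them over that level in GM06990, and there was none in BT483. Joined within 1 Mb, they gave runs from 61850001 to 72150000 (171 windows), from 45200001 to 58800000 (77 windows) and from 37400001 to 41100000 (15 windows). No other region had a run of 10 windows on this chromosome in a breast line. For description, 57 of 59 bins of 6p were higher in SUM44 than in GM06990 for 8q24.21, 1 was lower, and all 14 from 45 Mb to the gap were higher, where 15.7% of all trans bins of this region were.

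The high contact came from the whole of the captured region at 8q24.21. Split into its 13 parts of adjacent fragments, each part was below GM06990 in BT483 and above it in SUM44. The level of the parts up to the step was 0.450 to 0.578 in BT483, 5.13 to 7.56 in SUM44 and 0.816 to 1.14 in GM06990. In SUM44 the lowest was the part that starts at base 128048893, and those at both ends of the region, starting at 127886760, 127899870 and 128446495, had 7.53, 7.55 and 7.56. In the last 1 Mb before the step the parts had 0.421 to 0.885 in BT483, 8.91 to 12.4 in SUM44 and 0.835 to 1.72 in GM06990. Beyond the labelled stretch none of the 13 parts was above GM06990 in SUM44. Parts are pieces of 1 captured region in the same libraries and are not replicates.

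The contacts counted between the chromosome 16 region and the end of 6p were concentrated in a narrow place. The aligner and its settings are not known, and whether reads from similar sequence elsewhere were counted in these windows was not tested. The rule set for an extended run of at least 10 windows found none there, and the values below are those of 3 adjacent windows from 250001 to 400000. Their mean level was 13.5 and 10.3 in the BT483 replicates, 27.8 and 28.3 in SUM44 and 4.46 and 3.45 in GM06990. Window by window the level was 9.45, 14.5 and 11.7 in BT483, 22.9, 32.4 and 28.8 in SUM44 and 0.943, 5.62 and 5.29 in GM06990. The first of the 3 windows was thus at the average level in GM06990 and raised in both breast lines, whereas the other windows were raised in all 3 lines. Counts were small: that first window had 69 and 59 contacts in BT483, 78 and 72 in SUM44 and 7 and 6 in GM06990.

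The edges of this peak were sharp, and in GM06990 the raised windows began only at 300001. The windows next to the 3, which begin at 200001 and 400001, had 0.940 and 0.926 in BT483, 0.915 and 1.22 in SUM44 and 1.17 and 0.985 in GM06990. The other 15 windows of the first 900 kb averaged 0.709 in BT483, 0.834 in SUM44 and 0.896 in GM06990. The other 5 regions had 1.66 to 2.73 in BT483, 3.01 to 3.84 in SUM44 and 1.73 to 2.06 in GM06990 over the same 3 windows. The mean of the 3 was thus above average from every region and highest from the chromosome 16 region. The first window alone was not: in GM06990 it had 0.593 from 9q31.2 and 0.826 from the chromosome 18 region. All 12 parts of the captured region were above GM06990 in both breast lines, with 9.91 to 19.1 in BT483, 11 to 38.8 in SUM44 and 1.91 to 5.40 in GM06990. The part with the lowest level in SUM44 had 4 contacts there.

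**Figure D5:**
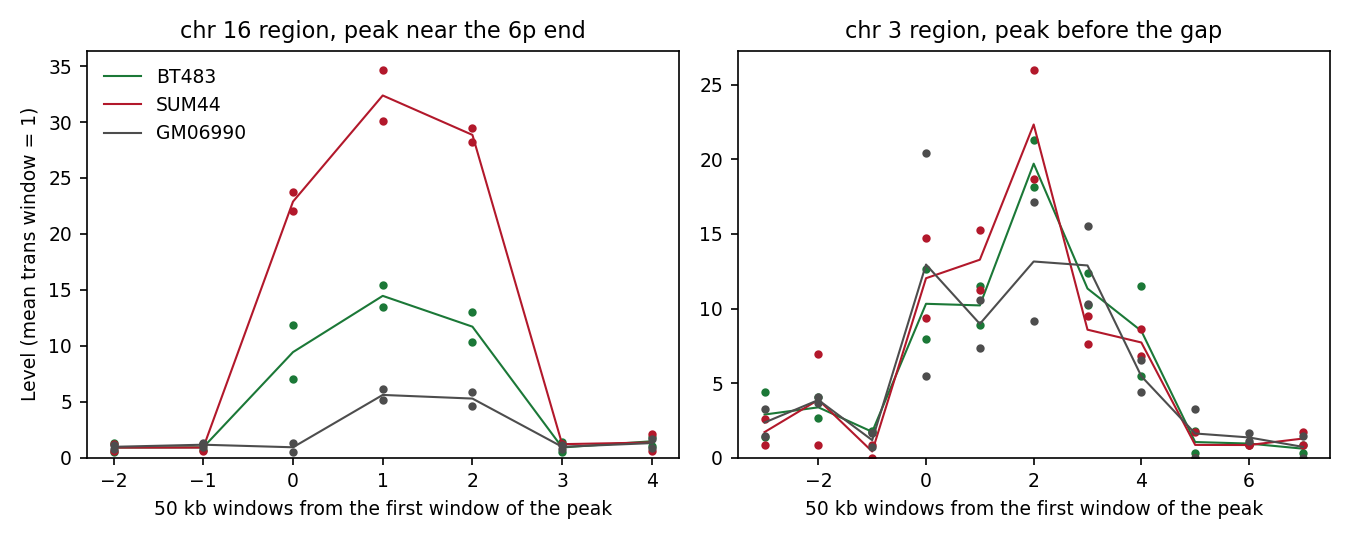
Level in 50 kb windows around the peak of the chromosome 16 region near the 6p end (left) and that of the chromosome 3 region before the centromere gap (right), counted from the first window of each peak; points are replicates and lines their means. The left peak reaches 14.5 in BT483, 32.4 in SUM44 and 5.62 in GM06990, and the replicates of the 3 lines overlap in the right peak.

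The counts of the chromosome 3 region had a peak on 6p, at 57350001 to 57600000 (5 windows), which was chosen after its values were seen. Whether reads from similar sequence elsewhere were counted in these windows was not tested. Its level was 12.9 and 11.1 in the BT483 replicates, 14.0 and 11.6 in SUM44 and 14.0 and 7.34 in GM06990. The lines overlapped. The other regions had at most 3.79 there in BT483 and 2.96 in GM06990, and in SUM44 8q24.21 had 8.67 and the others 1.61 to 3.02. All 7 parts of the chromosome 3 region had levels of 6.73 or more in every line. In 16 of the 18 pairs of region and line the largest step of the chromosome 6 profile lay between 57550000 and 57750000, beside this peak, in all 3 lines. The exceptions were 8q24.21 and the chromosome 16 region in SUM44, whose largest steps lay at 72150000 and 1100000.

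To ask whether a region changed in a bin beyond the other captured regions, edgeR's quasi-likelihood test on bins of 1 Mb was given an offset. It was the mean count of the other regions in the same bin and replicate, each divided by its trans total. Regions with few contacts thus weighed as much as the others. The offset was taken as known, so SEs and adjusted p-values leave out its own counting error. For 8q24.21 none of 98 bins of 6q from 73 Mb was called in BT483 against GM06990 at an adjusted p under 0.05, where 5.79% of its trans bins were, 8 had an unadjusted p under 0.05, and DESeq2 called none. Over the 6 regions 110 of 1014 bins of chromosome 6 were called in BT483 (46 higher, 64 lower), where 15.1% of all trans bins were, and 201 in SUM44 (75 higher, 126 lower), against 21.3%. Without the 13 bins that hold the chosen values they were 109 and 188 of 1001. Both shares on chromosome 6 were under the background. The chromosome 16 region gave 70 of the 110 in BT483, where 51.5% of all its trans bins were called. The BT483 count was 66 and 72 without BT483 replicates 1 and 2, and 67 and 65 without GM06990 replicates 1 and 2. The SUM44 count was 121 without SUM44 replicate 1 and 118 without GM06990 replicate 2.

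Bins called in this region-specific test lay on both arms. For 8q24.21 in SUM44 the highest bins outside 61 to 73 Mb start at 57, 58 and 55 Mb, with log2 changes of 1.89, 1.70 and 1.30. Inside that stretch, which the rule used, the median was 2.48. The bin at 158 Mb was lower by a log2 change of -0.88 (SE 0.157). For 8q24.21 in BT483 the bin at 19 Mb was higher (0.49, SE 0.132), with levels of 1.47 and 1.53 in BT483 and 0.833 and 0.979 in GM06990. The bin at 26 Mb was lower with the offset (-0.68, SE 0.135), but its log2 change was only -0.17 when scaled to the region's own trans total. Its levels were 1.04 and 0.813 in BT483 and 1.07 and 0.979 in GM06990. For 2q35 the bin at 33 Mb was higher in BT483 (0.78, SE 0.158), with levels of 1.39 and 1.37 in BT483 and 0.718 and 0.745 in GM06990. The bin at 161 Mb was lower in BT483 (-1.10, SE 0.210), with 0.308 and 0.244 in BT483 and 1.42 and 1.23 in GM06990. For 2q35 in SUM44 the bin at 106 Mb was higher (0.68, SE 0.136), with 1.79 and 1.78 in SUM44 and 1.45 and 1.35 in GM06990.

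For 9q31.2 the bin at 3 Mb was higher in SUM44 (0.76, SE 0.166), with levels of 2.49 and 2.18 in SUM44 and 1.12 in both replicates of GM06990, and only the bin at 24 Mb was called in BT483 (0.50, SE 0.163). For the chromosome 16 region in BT483 the bin at 28 Mb was higher (0.91, SE 0.139), with 2.40 and 1.60 in BT483 and 1.05 and 1.10 in GM06990, and the bin at 38 Mb was lower (-0.92, SE 0.156). The bin at 162 Mb was higher for this region in BT483 with the offset (0.93, SE 0.171) but its log2 change was -0.31 when scaled to the region's own trans total. Its levels were 1.21 and 0.501 in the BT483 replicates and 1.03 in both of GM06990. For the chromosome 18 region the largest changes in BT483 were 0.53 at 152 Mb, which became -0.45 on the region's own total, and -0.59 at 165 Mb. All adjusted p-values of these bins were under 0.05 by edgeR's test with the offset, and the largest was 0.0496. The calls of the chromosome 18 region in BT483, and of 8q24.21 at 19 Mb and 9q31.2 at 24 Mb in BT483, were lost when either BT483 replicate was left out, and that of 8q24.21 at 26 Mb without BT483 replicate 2. DESeq2 gave adjusted p-values of 0.158 for 8q24.21 at 19 Mb and 0.777 for 9q31.2 at 24 Mb, and none for the chromosome 18 region bins.

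The raised contact of 8q24.21 entered the offset of the other regions in SUM44. Between 61 and 73 Mb, 44 of the 60 bins of the other 5 regions were lower in SUM44 than in GM06990 with that offset, where 11.8% of all trans bins were, with a median log2 change of -0.83. When regions with a level over 3 in a bin were left out of the offset, 11 were lower and 4 higher, with a median of -0.04. Scaled to the region's own trans total instead, the bin at 71 Mb for the chromosome 16 region, that at 70 Mb for the chromosome 3 region and those at 64, 70 and 71 Mb for the chromosome 18 region, all lower with the offset, had positive log2 changes of 0.11 to 0.44. Those at 63 and 70 Mb for 2q35 (-0.80 and -0.52) and at 61, 63 and 69 Mb for 9q31.2 (-1.65, -0.71 and -0.64) were lower in SUM44 on either scale. In BT483 the same 60 bins gave 1 lower and 3 higher under either offset.

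The profiles of the breast lines along chromosome 6 were correlated in every region, least for 8q24.21. Over 168 bins of 1 Mb, which share mappability, restriction sites and libraries and are not independent, Pearson's r between BT483 and SUM44 was 0.74 to 0.82 for the regions other than 8q24.21 and 0.31 for 8q24.21. These bins include those whose 8q24.21 values in SUM44 chose the chromosome, so a low r there is no separate result. By Spearman's rank correlation the values were 0.61 to 0.78 for the other regions and 0.53 for 8q24.21. Pearson's r with GM06990 was 0.30 to 0.54 for BT483 and 0.02 to 0.50 for SUM44 over the 6 regions. For 8q24.21 Pearson's r of BT483 was 0.44 with GM06990 and 0.31 with SUM44, where Spearman's values were 0.50 and 0.53. Replicates of a line had r from 0.69 to 0.99, lowest for the chromosome 3 region. For 8q24.21 the replicates of SUM44 had an r of 0.99.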

How the data were processed

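The tables deposited by the authors hold the count of read pairs ligated between a captured part and a 50 kb window, or per HindIII fragment, with 1 count column per replicate, and the positions of the captured fragments. Per the submitters' processing notes, reads passed through CASAVA 1.8 and the build was GRCh37 (hg19). The aligner, its settings and any filter on duplicates are not given in the sources used here. Counts were read as deposited, with no normalisation.

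Contacts of each captured region were summed per window and scaled to the mean trans window of that region and replicate. Windows with at least 20 contacts and bins of 1 Mb with at least 50, over the 6 libraries, were tested in edgeR 4.0.16 (R 4.3.3) by the quasi-likelihood test, with all 3 lines in 1 fit per region, the region's trans total as library size, and Benjamini-Hochberg adjustment over all trans windows or bins of the region. Changes are log2. The region-specific test used as offset the mean of the other regions' counts, each scaled to its trans total, times the region's own trans total. Means and SDs are over 2 replicates. The test scripts were tested on simulated data. Alternatives were TMM factors, DESeq2 1.42.0, other filters, other scalings, a replicate block and leaving out each replicate. The arm ratio, the step and the chromosome 3 region peak were added after the values were seen.

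Windows at the edges of the stretches, the 5 tallest windows per region and line and the 3 largest changes per region, breast line and direction in the region-specific test were eligible for naming; a selection of these is given. The members and lists were chosen with earlier results of these data known. Part positions within a captured region follow chromosome order, by which the trans totals of parts in the window tables correlated with those of the fragments they hold (r from 0.984 to 0.996). No genome or annotation of this build was at hand, so windows carry no gene names and no sequence. Scripts also used Python 3.11.15, pandas 2.3.3, numpy 2.4.6, scipy 1.17.1 and matplotlib 3.10.9.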

Additional observations from a re-analysis of the deposited data

Results flagged for a closer look

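Over the labelled stretch of 6q both replicates of BT483 lay below both of GM06990 while both replicates of SUM44 lay above them, for 4 of the 6 captured regions. The level in BT483 over that in SUM44 was 0.0914 for 8q24.21, 0.475 for the chromosome 16 region, 0.482 for the chromosome 3 region and 0.405 for the chromosome 18 region. Over the whole stretch the opposite direction in the breast lines was not tested, and both lines were set against the same GM06990 columns. For 8q24.21 the stretch was chosen for these values. In the other 3 regions the level was 0.680 in BT483, 1.43 in SUM44 and 1.04 in GM06990 from the chromosome 16 region, 0.652, 1.35 and 1.11 in the same order of lines from the chromosome 3 region, and 0.532, 1.31 and 1.07 from the chromosome 18 region. Against GM06990, edgeR's test called 8, 2 and 12 of the 12 bins of 1 Mb from 61 to 73 Mb lower in BT483 for the chromosome 16, 3 and 18 regions, where 29.9%, 5.46% and 21.7% of all their trans bins were, but only 3, 0 and 3 higher in SUM44, where 10.4%, 4.93% and 9.81% were. For the chromosome 3 region 2 of the 12 were higher in SUM44 at an unadjusted p under 0.05, and DESeq2 gave no adjusted p. In the edgeR fit of BT483 against SUM44, 11, 7 and 12 of the same bins were lower in BT483 for these regions, where 18.5%, 5.58% and 15.8% of all their trans bins were.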

How the results depend on the processing

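With 2 replicate columns a line, the SDs rest on 2 values, and the chromosome 3 region had too few contacts for most windows to be tested. Window counts are given as BT483 against GM06990, SUM44 against GM06990 and BT483 against SUM44, where the reported values are 419, 708 and 740. DESeq2 gave 3, 273 and 258. A minimum of 60 contacts gave 272 for the first. Bins of 1 Mb gave 346 and 456 for the second and the third. Leaving out 1 replicate gave 9 to 348, 157 to 572 and 218 to 511. For region-specific bins, reported as 110 in BT483 and 201 in SUM44, the region's own total gave 617 and 346, DESeq2 36 and 103, and leaving out 1 replicate 65 to 108 and 118 to 202. The 496 lower bins of 6q in BT483 were 313 with DESeq2 and 311 to 541 with 1 replicate left out, and the 139 higher bins of 6p in SUM44 were 88 to 201. The causes were not tested.

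The stretch of 8q24.21 had 6.93 in SUM44 and 0.982 in GM06990 when scaled to the median window, and in GM06990 0.826 as a median over windows and 0.930 without the captured part with most contacts. With 1 replicate left out it had 0.492 to 0.577 in BT483, 5.47 to 6.22 in SUM44 and 0.941 to 0.968 in GM06990, and the lowest captured part in SUM44 had 4.62 to 5.67. The 3 windows near the 6p end had 30.6 in SUM44 when scaled to the median window, 28.8 as a median over windows and 29.1 without the part with most contacts, and in GM06990 5.29 as a median over windows. With 1 replicate left out they had 10.3 to 13.5 in BT483, 27.8 to 28.3 in SUM44 and 3.45 to 4.46 in GM06990, and the lowest part in SUM44 10.7 to 11.3. The arm ratio in GM06990 was 1.00 from the median window of each arm, and with 1 replicate left out it was 1.96 to 2.21 in BT483, 1.55 to 1.59 in SUM44 and 1.01 to 1.02 in GM06990. The share on chromosome 6 was then 4.53% to 4.91%, 7.26% to 7.37% and 6.43% to 6.47% in that order, and without 8q24.21 the means were 6.30% in SUM44 and 6.39% in GM06990.

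Of 49 named bins, 30 stayed past the threshold on the region's own total, 11 kept their sign but not the call, and 8 changed sign. The last were: for the chromosome 16 region 162 Mb in BT483 (-0.31), 161 Mb (-0.10) and 71 Mb (0.44) in SUM44, for the chromosome 3 region 70 Mb in SUM44 (0.13), and for the chromosome 18 region 152 Mb in BT483 (-0.45), 71 Mb (0.17), 70 Mb (0.11) and 64 Mb (0.23) in SUM44. With raised regions left out of the offset, 4 changed sign in SUM44: 71 Mb for the chromosome 16 region (0.15), 70 Mb for the chromosome 3 region (0.086), and 70 Mb (0.073) and 64 Mb (0.011) for the chromosome 18 region. With 1 replicate left out, the bin at 31 Mb for 2q35 in BT483 had -0.027 to 0.82, the lower value without BT483 replicate 2.

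The replicate numbers did not pair the samples: the deviations of same-numbered replicates between lines correlated from -0.166 to 0.115. With the replicate block the window counts were 336, 672 and 673, the region-specific counts 111 and 202, the lower bins of 6q 510 and the higher bins of 6p 142. The arm ratio, the share, the step, the parts and the arm counts had alternatives chosen after seeing the data.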
